A study of Mus musculus with 5 samples.

Results

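NK and innate-like lymphocytes were taken here as the cells that carried NK receptor transcripts inside a sort for CD4 T cells of the injured mouse kidney. A cell was a member when it had at least 2 of the 5 genes Ncr1, Klre1, Klrb1c, Klrc2 and Clnk detected, with no count of Cd8b1 and no count of Foxp3. The rule kept 354 of 38417 retained cells, that is 38, 60 and 27 in the knockout libraries and 169 and 60 in the control libraries. Retained cells had at least 500 genes and under 10% mitochondrial counts, and counts are unique molecular identifiers (UMIs, counted transcripts). The members were chosen by their own counts of these genes, so levels of the 5 rule genes and of other genes in members beside other cells are descriptions with no test.

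The 3 knockout libraries (IRIKO) came from Il1rl1fl/fl Foxp3YFP-Cre mice and the 2 control libraries (IRIWT) from Il1rl1fl/fl mice, all 10 weeks old and all with ischemia-reperfusion injury of 1 kidney. Both groups carry the floxed Il1rl1 gene, which encodes ST2, the receptor of the alarm cytokine IL-33. The knockout group alone has Cre recombinase, driven by Foxp3, the transcription factor of regulatory T cells, so the Cre allele and loss of Il1rl1 cannot be told apart, and the members were chosen for having no Foxp3 count. Kidneys were digested, cells were stained for CD45, CD25, TCRβ, CD4 and CD127, and sorted CD4 T cells were read by single-cell 3′ sequencing. Nothing in the labels says that each library is a separate animal, so p-values measure the spread between these libraries.

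NK cells kill stressed or infected cells through perforin and granzymes and are steered by germline-encoded activating and inhibitory receptors rather than by a rearranged antigen receptor. Many of those receptors are C-type lectins whose genes (Klr and Klra) lie together in the NK gene complex of mouse chromosome 6. Innate-like T cells, among them invariant NKT and gamma-delta T cells, rearrange an antigen receptor but share NK receptors and rapid cytokine release. In the ischemic kidney such cells are known as early sources of interferon-gamma and as cells that can injure tubules.

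Of the 5 rule genes, Ncr1 encodes the activating receptor NKp46, Klrb1c the NK1.1 antigen, Klrc2 an activating receptor that pairs with CD94, Klre1 a lectin-like receptor, and Clnk an adaptor of immune receptor signalling. Klre1, Klrb1c and Klrc2 lie on chromosome 6, Clnk on chromosome 5 and Ncr1 on chromosome 7. The 250 bases before the annotated start of each gene are shown because these 5 genes define the population and were detected together. Capitals mark letters of the RUNX core (TGTGGT or its reverse complement ACCACA) and of a T-box site (TCACAC or GTGTGA). RUNX and T-box factors are known regulators of NK cell genes.
Ncr1 (chr7:4337465-4337714, plus strand): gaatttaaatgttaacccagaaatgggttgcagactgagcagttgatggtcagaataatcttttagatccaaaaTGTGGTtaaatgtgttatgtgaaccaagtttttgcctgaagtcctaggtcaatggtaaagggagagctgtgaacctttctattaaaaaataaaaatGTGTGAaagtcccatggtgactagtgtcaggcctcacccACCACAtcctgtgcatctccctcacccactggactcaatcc
Klre1 (chr6:129577963-129578212, plus strand): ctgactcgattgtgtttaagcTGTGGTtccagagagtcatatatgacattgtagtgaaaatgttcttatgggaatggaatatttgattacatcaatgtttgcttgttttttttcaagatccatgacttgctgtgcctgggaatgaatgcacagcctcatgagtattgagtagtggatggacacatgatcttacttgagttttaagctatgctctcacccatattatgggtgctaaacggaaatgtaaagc
Klrb1c (chr6:128788642-128788891, minus strand): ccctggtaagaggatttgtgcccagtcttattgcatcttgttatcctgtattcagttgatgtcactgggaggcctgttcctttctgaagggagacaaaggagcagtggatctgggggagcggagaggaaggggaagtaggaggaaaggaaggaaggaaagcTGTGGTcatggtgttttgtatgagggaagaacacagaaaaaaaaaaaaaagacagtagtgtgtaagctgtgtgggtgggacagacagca
Klrc2 (chr6:129660597-129660846, minus strand): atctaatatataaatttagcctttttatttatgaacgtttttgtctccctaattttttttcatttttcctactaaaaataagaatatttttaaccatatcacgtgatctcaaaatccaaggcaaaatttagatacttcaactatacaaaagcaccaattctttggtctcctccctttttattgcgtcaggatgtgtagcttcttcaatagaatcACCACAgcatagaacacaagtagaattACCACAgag
Clnk (chr5:38876694-38876943, minus strand): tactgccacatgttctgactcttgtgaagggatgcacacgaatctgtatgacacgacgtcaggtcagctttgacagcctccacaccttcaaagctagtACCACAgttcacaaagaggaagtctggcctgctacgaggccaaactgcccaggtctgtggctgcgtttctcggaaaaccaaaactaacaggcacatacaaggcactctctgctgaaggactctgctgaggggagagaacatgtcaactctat
These windows are from RefSeq on GRCm38.p6 and read 5′ to 3′ on the strand of the gene. The RUNX letters stood in all 5 windows, against 14.2% of 27025 mouse windows of the same length, and no match overlapped a T-box match. They stood 176 and 41 bases before the start of Ncr1, 229 before Klre1, 89 before Klrb1c, 36 and 9 before Klrc2 and 152 before Clnk. T-box letters stood only in the Ncr1 window among the 5, against 12.2% of all windows, and 80 bases before the start. Of the other genes looked up, Klrk1, Klrc1, Gzma and Prf1 had RUNX letters, whereas Tbx21, Klra4, Klra7, Klra9 and Il12rb2 had none. Ncr1, Klre1 and Klrc2 had 2 windows each, and the first was used. The matches describe letters, not bound sites.

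Among all members Klrc2 was detected in 76.3%, Klrb1c in 71.8%, Clnk in 64.7%, Klre1 in 64.4% and Ncr1 in 31.6%. Ncr1, the gene least often detected, had 180, 230 and 250 CPM (the UMIs of a gene summed over the members of a library and scaled to a common library total) in the knockout libraries and 204 and 128 CPM in the control libraries. Klre1 had 327, 209 and 245 CPM in knockout members and 303 and 276 CPM in control members. Levels of both genes overlapped between the groups. Klrc2, the rule gene detected most often, was lower in knockout members, with a log2 fold change of -0.56, against 0.30 for Ncr1. The rule used these values, so no test of them is read. Exactly 2 rule genes were detected in 141 members, 3 in 96, 4 in 62 and all 5 in 55. Just outside the threshold stood 872 cells with 1 rule gene and neither Cd8b1 nor Foxp3. A further 87 cells had 2 or more rule genes and were set aside, 57 of them with Cd8b1, 42 with Foxp3 and 12 with both. Pooled over libraries, the members with exactly 2 rule genes had 79.0 CPM of Gzma and 316.6 CPM of Klrk1, against 33.0 CPM of Gzma and 114.6 CPM of Klrk1 in the 872 cells. Klrk1 was higher in the members with 2 rule genes in every library, while Gzma was not in knockout replicate 3 (22.03 CPM against 86.6 CPM) or control replicate 2 (32.3 CPM against 36.3 CPM). Without control replicate 1 the pooled Gzma was 47.4 CPM against 29.6 CPM.

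Libraries differed in depth. Control replicate 1 held 152275841 UMIs, against 31104939 to 60421178 in the other 4 libraries, and it supplied 2894437 of the 4471021 UMIs of all members. Members had a median of 11351.5, 6048 and 5548 UMIs in the knockout libraries and 15694 and 6082 in the control libraries, above the median of all retained cells in each library. Scrublet called 1 doublet in all libraries, 18 members were among the 5% highest scores, and 50 members had at least 2 genes of macrophage, dendritic, B or tubule lists. Summed over 8 macrophage genes, members had 415, 1279 and 746 CPM in the knockout libraries and 188 and 1202 CPM in the control libraries, with Lyz2 at 800 CPM in knockout replicate 2. B cell lists summed to at most 69.4 CPM, dendritic lists to at most 24.5 CPM and tubule lists to at most 5.11 CPM in any library. Pairs of libraries shared 2 to 39 cell barcodes.

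Most members also held T receptor transcripts. Cd3e was detected in 80.2%, Trac in 79.7% and Cd4 in 54.5% of members. These shares alone do not set T cells apart, because cells marked by at least 5 of 8 macrophage genes or at least 3 of 5 B cell genes, classes set after the data were seen, held them too. With every cell thinned to 2000 UMIs, Trac had a UMI in 48.6%, 50.9% and 48.1% of members of the knockout libraries and 50.6% and 45.3% of members of the control libraries. In macrophage-marker cells the share was 57.6% to 63.8%, in B-marker cells 40.9% to 56.1%, and in other T cells (non-members with a Cd3e UMI) 66.1% to 74.2%. Median depths before thinning ran from 8929.5 to 25256 UMIs in macrophage-marker cells and from 4697.5 to 14480.5 in other T cells. Members thus carried Trac less often than macrophage-marker cells in every library. Cd3e did not follow that order: it had a UMI in 40.5%, 52.7% and 44.4% of thinned knockout members and 45.2% and 50.9% of thinned control members, against 40.9% to 51.0% of macrophage-marker cells and 31.4% to 34.1% of B-marker cells. Doublets were not removed and macrophage-marker cells were the deepest of these classes, and the part of doublets and free RNA in these shares was not tested. Cd4, the co-receptor that the sort selected for, had a UMI in 13.5%, 49.1% and 22.2% of thinned knockout members and in 16.9% and 22.6% of thinned control members, against 39.2% to 51.0% of macrophage-marker cells. Knockout replicate 2 stood apart from the other 4 libraries in that share. Klre1, by contrast, had a UMI in 27.0% to 37.0% of thinned members and in at most 0.384% of macrophage-marker cells, but the rule used it.

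**Figure D1:**
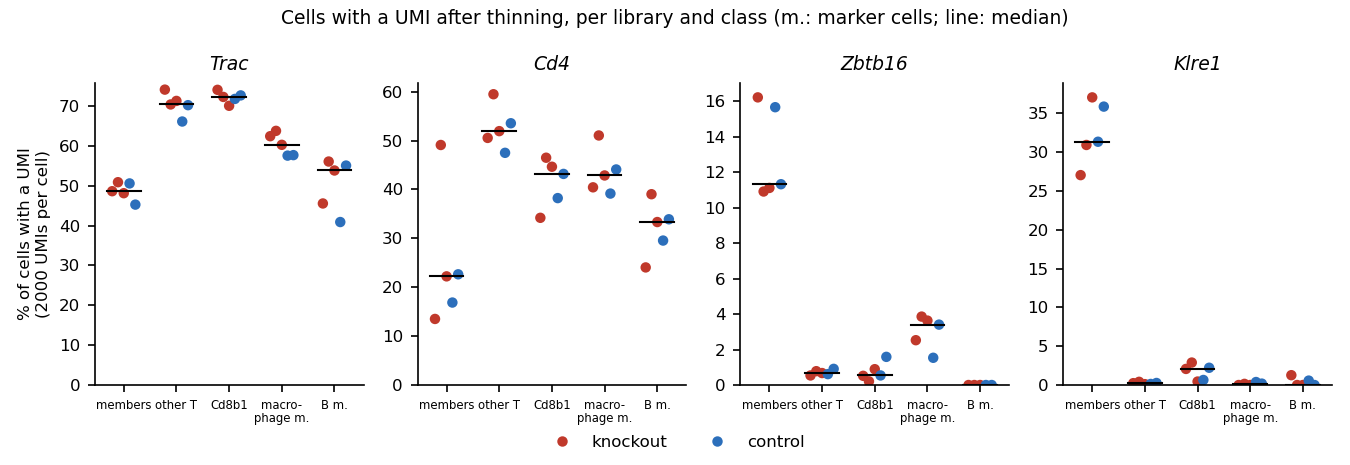
Percent of cells with a UMI of Trac, Cd4, Zbtb16 or Klre1 after thinning each cell to 2000 UMIs (y axis), per library (points; knockout red, control blue) and cell class (x axis), with the median as a line. Trac was found in 45.3% to 50.9% of members and in 57.6% to 63.8% of macrophage-marker cells, whereas Zbtb16 reached 10.9% to 16.2% of members and 1.54% to 3.86% of macrophage-marker cells.

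Summed over members, receptor and killing genes known from NK cells stood above their level in other cells, although single genes were found in a minority of members (Tyrobp in 37.3%, Gzma in 24.0% and Eomes in 18.6%). Outside the rule, the 15 genes that stood highest over Cd4 cells (non-members with Cd4 and without Cd8b1 and Foxp3) in the library where the gap was smallest were Gzma, Klra9, Klra4, Klrk1, Klra7, Klrc1, Prf1, Klrd1, Gzmb, Pip5k1b, Samd3, Sulf2, Setbp1, Aoah and Kcnq5. Klrk1, which encodes the activating receptor NKG2D, had 633, 321 and 511 CPM in knockout members and 642 and 376 CPM in control members, against 17.0 to 38.9 CPM in Cd4 cells and 35.4 to 65.4 CPM in cells with Cd8b1. Klrd1, which encodes CD94, had 204, 192 and 245 CPM in knockout members and 319 and 218 CPM in control members, against 12.6 to 25.7 CPM in Cd4 cells. Its partner Klrc1 (NKG2A) had 156, 147 and 220 CPM in knockout members and 278 and 146 CPM in control members, against 1.18 to 11.0 CPM in Cd4 cells. Every library of members stood above every library of Cd4 cells for these 3 genes. At least 1 of 8 Klra genes, the mouse family of receptors for MHC class I, was detected in 48.0% of members. Summed over the 11 Klra genes of the table, members had 607, 501 and 404 CPM in the knockout libraries and 955 and 580 CPM in the control libraries, against 15.9 to 21.8 CPM in other T cells. Reads of these near-identical copies may be split between genes, so single Klra values are uncertain.

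Granule genes followed. Gzma, a granzyme, had 652, 533 and 460 CPM in knockout members and 486 and 645 CPM in control members, against 18.8 to 64.1 CPM in cells with Cd8b1 and 5.93 to 15.3 CPM in Cd4 cells. Gzmb, the granzyme that activates caspases, had 289, 156 and 291 CPM in knockout members and 108 and 227 CPM in control members, and 12.8 to 51.4 CPM in Cd4 cells. Prf1, the pore protein perforin, had 156, 127 and 153 CPM in knockout members and 87.4 and 102 CPM in control members, against 5.21 to 10.6 CPM in Cd4 cells. Nkg7, a granule membrane protein, and Ccl5, a chemokine stored by cytotoxic cells, were high in other cells too: Nkg7 had 644 to 905 CPM in members and 408 to 607 CPM in cells with Cd8b1, and Ccl5 had 1221 to 1704 CPM in members and 941 to 1124 CPM in cells with Cd8b1. Of 14 listed granule genes with a UMI, 9 were above Cd4 cells in all 5 libraries and none was below in all 5, where 5.77% of all 15205 genes with a UMI in members were above and 8.58% below. Of 18 listed inhibitory and MHC class I receptor genes, 14 were above in all 5 libraries, and of 15 activating receptor and adaptor genes 11 were. Set against cells with Cd8b1, 5.02% of all genes were above and 8.54% below in all 5 libraries. Above were 9 of 14 granule genes, 14 of 18 inhibitory and MHC class I receptor genes and 10 of 15 activating receptors and adaptors. Of these lists 2, 0 and 1 genes were below in all 5. Of 18 genes of the T receptor complex and its proximal signalling, 13 were below Cd4 cells in all 5 libraries, 12 were below cells with Cd8b1, and none was above either. These contrasts involve the genes of the rule and are descriptions.

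Transcription factors gave a mixed picture. Tbx21, which encodes T-bet, the driver of type 1 programmes, had 213, 209 and 225 CPM in knockout members and 211 and 234 CPM in control members, against 86.0 to 128 CPM in Cd4 cells. Eomes, the T-box factor of mature NK cells, had 81.8, 49.0 and 46.0 CPM in knockout members and 45.3 and 48.7 CPM in control members, against 1.18 to 5.21 CPM in Cd4 cells, and was detected in 18.6% of members. Zbtb16, which encodes PLZF, a factor of innate-like T cells and of innate lymphoid precursors, had 77.8, 35.7 and 66.4 CPM in knockout members and 112 and 92.8 CPM in control members, against 4.78 to 7.67 CPM in Cd4 cells. The 2 groups did not overlap for Zbtb16, which was lower in knockout members, and the difference did not pass the test given below. Gata3, the factor of type 2 programmes, stood at 64.6 to 112 CPM in members and 78.3 to 113 CPM in Cd4 cells. Tcf7, a factor of memory and progenitor cells, stood at 138 to 258 CPM in members and 225 to 410 CPM in Cd4 cells. Rora, a factor shared by several innate lymphoid cells, stood at 167 to 415 CPM in members and 201 to 422 CPM in Cd4 cells.

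The adaptors Fcer1g and Tyrobp and the integrins Itga1 and Itga2 were above Cd4 cells, but residence markers as a list were not. Of 8 listed genes of type 1 innate lymphoid or resident NK cells, 3 were above and 2 below Cd4 cells in all 5 libraries. Summed over that list, members had 1201 to 1449 CPM and Cd4 cells 1134 to 1557 CPM. Fcer1g, the Fc receptor gamma chain, had 355, 296 and 373 CPM in knockout members and 198 and 413 CPM in control members, against 66.4 to 113 CPM in Cd4 cells. Tyrobp, which encodes the adaptor DAP12, had 383, 386 and 266 CPM in knockout members and 207 and 364 CPM in control members, against 73.1 to 117 CPM in Cd4 cells. Both adaptors are also macrophage genes: Fcer1g had 425 to 586 CPM in macrophage-marker cells. Il2rb, the receptor chain shared by IL-2 and IL-15, had 369 to 439 CPM in members and 150 to 207 CPM in Cd4 cells. Itga1, the integrin of tissue-resident cells, had 189 to 268 CPM in members and 56.9 to 119 CPM in Cd4 cells, and Itga2, the integrin of circulating NK cells, had 99.8 to 166 CPM in members and 35.5 to 58.6 CPM in Cd4 cells. Xcl1, a chemokine that attracts dendritic cells, had 123 to 359 CPM in members and 29.4 to 48.1 CPM in Cd4 cells. The levels of Ifng, which encodes interferon-gamma, overlapped between members (37.9 to 55.7 CPM) and Cd4 cells (29.0 to 111 CPM).

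**Figure D2:**
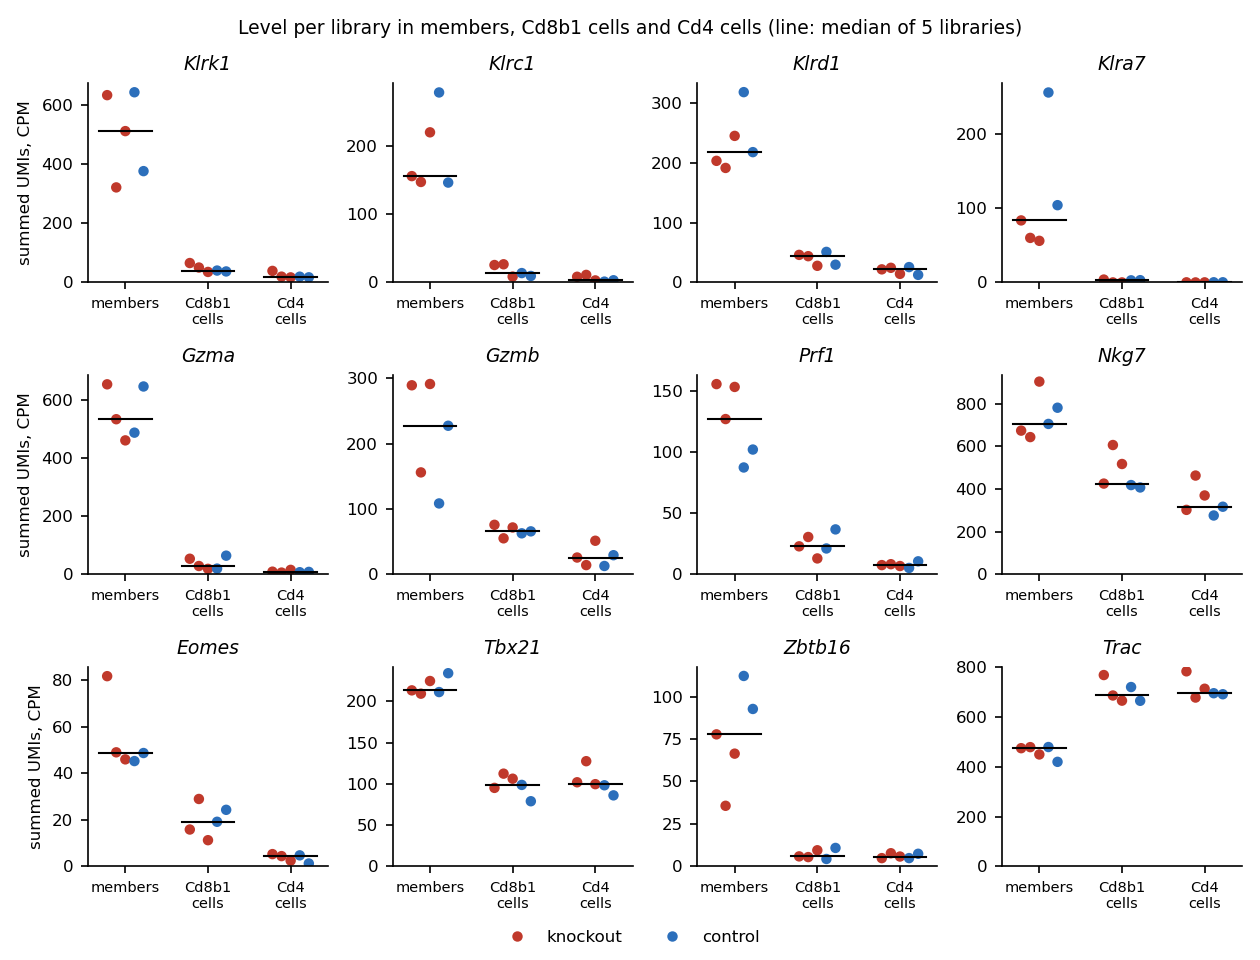
Summed UMIs of a gene in CPM (y axis) in members, in non-members with Cd8b1 and in Cd4 cells (x axis), 1 point per library (knockout red, control blue) with the median as a line. Gzma lay between 460 and 652 CPM in members and between 5.93 and 15.3 CPM in Cd4 cells, whereas Trac was lower in members (420 to 480 CPM) than in Cd4 cells (679 to 784 CPM).

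Transcripts of gamma-delta receptor genes were found in members, and whether the cells that held them were gamma-delta T cells was not tested. At least 2 UMIs of the gamma and delta receptor genes were found in 42.1%, 16.7% and 11.1% of knockout members and 42.6% and 30.0% of control members, unthinned. The 2 deepest libraries had the highest shares, and the part of depth was not tested. Tcrg-C4, a gamma chain constant gene, had 43.9, 26.7 and 15.3 CPM in knockout members and 52.5 and 44.1 CPM in control members, against 0.569 to 1.09 CPM in Cd4 cells. Trdc, the delta chain constant gene, had 33.9, 20.1 and 25.6 CPM in knockout members and 14.2 and 18.6 CPM in control members, against 1.21 to 3.66 CPM in Cd4 cells. Knockout and control members did not overlap for either gene, with Tcrg-C4 lower and Trdc higher in knockout members, and neither difference passed the test. Pooled over libraries, Trdc had 8.70 CPM in members with 2 rule genes and 27.6 CPM in those with 5. Tcrg-C4 went the other way, with 38.8 and 22.5 CPM. Invariant NKT cells were not marked by their receptor. Trav11 had 1 UMI in knockout members and 3 in control members. Traj18 was no higher in members (9.28 to 15.96 CPM) than in Cd4 cells (11.2 to 19.8 CPM). These are 3′ counts, so low values of such receptor segments do not show that invariant NKT cells were absent. Genes of group 2 innate lymphoid cells did not stand above Cd4 cells as a list. Of the 7 listed, 0 were above and 2 below Cd4 cells in all 5 libraries. Summed, they had 76.6 to 122 CPM in members and 89.6 to 157 CPM in Cd4 cells. Il5, Hey1 and Calca were at 0 in all members and Il13 had 1 UMI. Gata3 and Il1rl1, also on that list, had UMIs in members, and their levels are given apart. Areg, the repair factor amphiregulin, had 1 UMI in knockout members and 3 in control members.

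Members differed in content with the number of rule genes detected, which is a description, since that number chose them. With the UMIs of all libraries pooled, Gzma had 79.0, 191, 463 and 1636 CPM in members with 2, 3, 4 and 5 rule genes, and 47.4, 360, 966 and 1819 CPM without control replicate 1. The order of the middle steps was not shared by all libraries: knockout replicate 1 had 369 CPM with 3 rule genes and 104 CPM with 4. Tyrobp had 87.7, 115, 271 and 689 CPM in the same order, and 130, 265, 571 and 849 CPM without control replicate 1. Klra8 had no UMI in members with 2 rule genes and 14.5, 44.6 and 484 CPM in those with 3, 4 and 5 (45.0, 70.4 and 280 CPM without control replicate 1). Eomes stood at 20.1, 16.3 and 25.7 CPM with 2, 3 and 4 rule genes and at 157 CPM with 5, and without control replicate 1 at 17.8, 39.4, 70.4 and 169 CPM. Trac had 534, 486, 491 and 344 CPM, and Zbtb16 had 105, 153, 90.3 and 26.6 CPM, or 104, 67.5, 46.9 and 6.9 CPM without control replicate 1. Members with 5 rule genes held more Gzma and Eomes and less Zbtb16 than members with 2 in every library. Cells with more rule genes were deeper, with medians of 6782, 9631.5, 12187 and 12560 UMIs, and the part of depth in the gradient was not tested. Thinned to 2000 UMIs, they held a median of 8, 6, 6 and 4 UMIs of 7 T receptor genes (Cd3d, Cd3e, Cd3g, Cd247, Trac, Trbc1 and Trbc2). The summed level of 11 conventional NK genes, none of them a rule gene, was 2954 to 4768 CPM with 5 rule genes and 154 to 446 CPM with 2 across libraries.

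**Figure D3:**
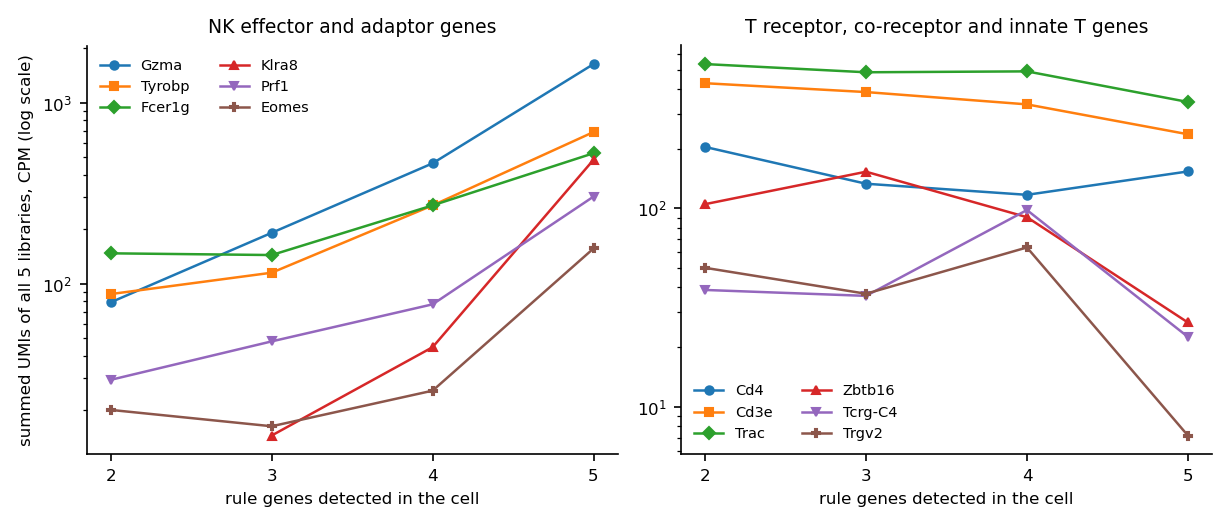
UMIs summed over all 5 libraries, in CPM on a log axis (y), in members by the number of rule genes detected (x); lines join the values of a gene and a value of 0 is not drawn. Gzma was at 79.0 CPM with 2 rule genes and at 1636 CPM with 5, and Zbtb16 was at 105 CPM with 2 and at 26.6 CPM with 5.

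Gzma and Zbtb16 were detected in partly different cells, with 1 library apart. Gzma was detected in 22 of the 138 members with Zbtb16 (15.9%) and in 63 of the 216 members without (29.2%), although those with Zbtb16 were deeper, with medians of 12473.5 and 8132.5 UMIs. In the other 4 libraries Gzma was in 6.67%, 10.0% and 0% of knockout and 5.56% of control members with Zbtb16, against 39.1%, 28% and 52.9% of knockout and 26.2% of control members without. Control replicate 1, which held 85 of the 138 cells, had 22.4% with and 23.8% without. At least 2 gamma-delta receptor UMIs were found in 42.8% of members with Zbtb16 and 27.8% of members without, but this order was reversed in knockout replicate 3 and control replicate 2. Of the 85 members with Gzma, 69 also had Ncr1, 64 had Tyrobp and 50 had Eomes, whereas 43, 68 and 16 of the 269 members without Gzma did. Gzma thus stood more often with Ncr1, Tyrobp and Eomes than without in every library. Over all members, 33 of 338 that could be thinned had at most 1 UMI of the 7 T receptor genes (9.76%, exact 95% interval 6.82% to 13.4%). These receptor-poor members numbered 5, 5 and 1 in the knockout libraries and 18 and 4 in the control libraries, so only 1 library reached the 10 cells set for a test and none was made. Pooled, receptor-poor members had 587 CPM of Ncr1 and 1079 CPM of Gzma, against 171 CPM and 487 CPM in receptor-rich members, with a median of 6356 UMIs in receptor-poor and 11286 UMIs in receptor-rich members.

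The share of members did not separate the genotypes. After thinning to 2000 UMIs, members made up 0.435%, 0.333% and 0.310% of the retained knockout cells and 0.860% and 0.361% of the retained control cells. The mean share was 0.360% ± 0.0666 in knockout libraries (SD, n = 3) and 0.610% ± 0.353 in control libraries (SD, n = 2), a difference of -0.251 percentage points that did not pass a two-sided exact permutation test (p = 0.4, where 0.2 is the smallest p that 5 libraries allow). Control replicate 1 alone set this difference: without it the knockout mean minus the control value was -0.00112 points. The exact 95% interval of control replicate 1, 0.681% to 1.07%, lay above that of control replicate 2, 0.236% to 0.528%, so libraries of the same genotype differed beyond counting error. Unthinned, the shares were 0.896%, 0.581% and 0.505% in knockout libraries and 1.78% and 0.665% in control libraries. Intervals and limits for counts of 0 cover counting error only.

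**Figure D4:**
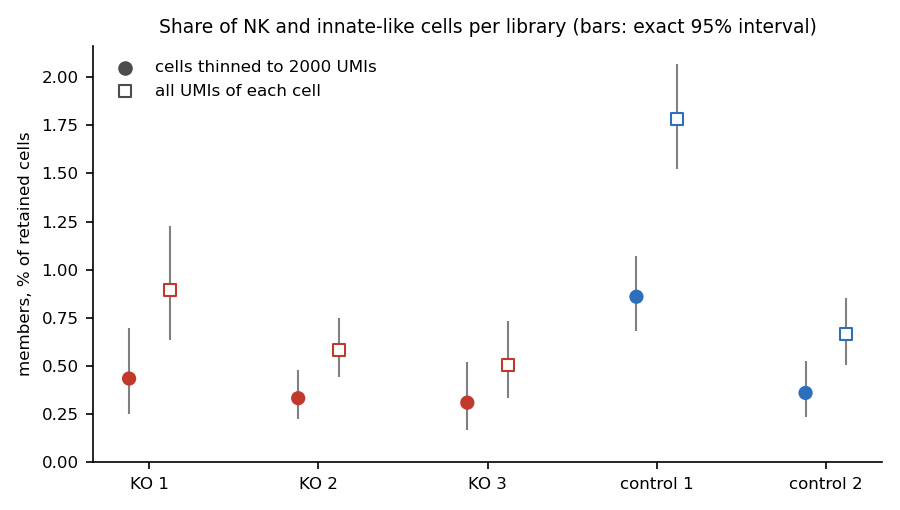
Members as a percent of retained cells (y axis) in each library (x axis), after thinning to 2000 UMIs (filled circles) and with all UMIs (open squares), with exact 95% intervals. The thinned shares of the 3 knockout libraries, 0.310% to 0.435%, bracketed that of control replicate 2 (0.361%), and control replicate 1 stood above all of them at 0.860%.

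Whether members differed between knockout and control kidneys was tested on UMIs summed over the members of each library, across 6856 genes. No gene passed an adjusted p of 0.05 in edgeR's quasi-likelihood test, so 0% were called, and 228 (3.33%) had an unadjusted p under 0.05, 126 of them higher (1.84%) and 102 lower (1.49%) in knockout members. The log2 fold change was above 0 for 49.8% of genes. DESeq2 called 1 gene (0.0146%), Il1rl1. All levels of the knockout libraries lay above all levels of the control libraries for 9.28% of genes and below them for 6.97%. The genes named next did not overlap between the groups and had the smallest p, none of which passed after adjustment (adjusted p of 0.403 to 0.769 in edgeR).

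Il1rl1 is the target of the floxed allele, and its count is given first. It had 23, 13 and 4 UMIs (45.9, 29.0 and 20.4 CPM) in knockout members and 0 and 1 UMI (0 and 2.32 CPM) in control members, in 13 knockout cells and 1 control cell. The ratio of the summed levels was 116, with an exact 95% counting interval of 19.7 to 4699. That interval treats the 40 knockout UMIs as independent and leaves out the spread between cells and libraries. Control replicate 1 supplied 2894437 of the 3325439 control UMIs in the ratio. The 0 UMIs among 2894437 in control replicate 1 allow up to 1.04 CPM, and 0 of 169 cells allows up to 1.78% of cells with a UMI. The log2 fold change was 6.11 ± 1.12 (SE) with an adjusted p of 0.403 in edgeR and 0.0210 in DESeq2. Other T cells had 65.7, 37.2 and 28.3 CPM in knockout libraries and 17.1 and 14.6 CPM in control libraries, and B-marker cells had 37.2, 37.2 and 5.69 CPM in knockout libraries and 10.9 and 14.1 CPM in control libraries. A UMI of Il1rl1 was found in 15.8%, 8.33% and 7.41% of knockout members and in 29.1%, 12.2% and 4.76% of knockout B-marker cells, and thinned in 8.11%, 5.45% and 3.70% of knockout members and 10.1%, 0% and 0% of knockout B-marker cells. The order of members and B-marker cells thus differed between libraries, and the part of free RNA was not tested. In control libraries the share was 0% and 1.67% of members and 6.18% and 4.72% of B-marker cells. Median depths were 5548 to 15694 UMIs in members and 6312 to 21515.5 in B-marker cells. In cells with Foxp3, where Cre is made, Il1rl1 had 128, 53.9 and 51.6 CPM in knockout libraries and 74.2 and 54.8 CPM in control libraries, which overlapped. The labels do not say which part of the gene is deleted, and 3′ counts of a part left in place check nothing.

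The other genes with higher values in all 3 knockout libraries, none past the test, included costimulatory and chemokine genes. Tnfsf8, which encodes the CD30 ligand, had 132, 154 and 118 CPM in knockout members and 46.3 and 62.6 CPM in control members, a log2 fold change of 1.37 ± 0.24 (SE). Tnfrsf4, which encodes the costimulatory receptor OX40, had 67.8, 40.1 and 46.0 CPM in knockout members and 8.98 and 18.6 CPM in control members, a log2 fold change of 2.16 ± 0.44. Lilr4b, a leukocyte immunoglobulin-like receptor, had 35.9, 51.3 and 35.8 CPM in knockout members and 9.67 and 6.96 CPM in control members. March3, a ubiquitin ligase, had 182, 145 and 66.4 CPM in knockout members and 25.9 and 65.0 CPM in control members, nearly touching. Cxcl10, an interferon-induced chemokine, had 126, 33.4 and 5.11 CPM in knockout members and 2.42 and 4.64 CPM in control members, and 38.0% of its knockout UMIs came from 1 cell. Knockout replicate 1 was thus high and knockout replicate 3 close to the controls for Cxcl10.

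Lower in all 3 knockout libraries than in both controls, without passing the test, were Klra7, Klra6, Airn, Dhx40 and Klra4. Klra7, a receptor of the Ly49 family, had 83.8, 60.2 and 56.2 CPM in knockout members and 257 and 104 CPM in control members, a log2 fold change of -1.51 ± 0.34 (SE). Klra6 had 9.98, 8.91 and 5.11 CPM in knockout members and 30.7 and 46.4 CPM in control members, and Klra4 had 75.8, 89.1 and 66.4 CPM in knockout members and 138 and 123 CPM in control members. Over the Klra family, 8 of 11 genes passed the filter on low counts, 6 of the 8 had a negative log2 fold change with a median of -0.62, and 0 passed the test, while the median of all genes tested was -0.00. Klra3 (0.46 ± 0.34) and Klra5 (0.39 ± 0.82) had positive values. Summed over the 11 genes, the groups overlapped, with 607, 501 and 404 CPM in knockout members and 955 and 580 CPM in control members. In the test against other T cells given below, the log2 interaction was -0.02 for Klra7, 0.40 for Klra6 and 1.35 for Klra4. None of these passed, so the differences were not shown to be particular to members.

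The effector genes of the population gave small differences with wide errors. The log2 fold change, knockout over control, was -0.05 ± 0.21 (SE) for Gzma, 0.60 ± 0.33 for Gzmb, 0.61 ± 0.22 for Prf1, -0.04 ± 0.20 for Nkg7 and -0.26 ± 0.30 for Ifng. For transcription factors it was -0.07 ± 0.19 for Tbx21, 0.37 ± 0.30 for Eomes and -0.85 ± 0.29 for Zbtb16. None passed after adjustment in edgeR. Prf1 did not overlap between the groups and was higher in all 3 knockout libraries. Among 16 receptor and signalling genes of IL-2, IL-12, IL-15, IL-18, IL-7 and IL-33, 12 had a positive log2 fold change (median 0.23). Of these 16, 4 had an unadjusted p under 0.05, all higher and Il2ra, Il18r1 and Il1rl1 among them, and 0 passed after adjustment. Over all 6856 genes tested, 49.8% had a positive log2 fold change and 1.84% were higher at an unadjusted p under 0.05. Il2ra, the IL-2 receptor alpha chain, had 67.8, 57.9 and 81.8 CPM in knockout members and 36.6 and 32.5 CPM in control members. Of 12 proliferation genes tested, 12 had a positive log2 fold change with a median of 0.61. Their level, summed over the 15 listed genes, was 1479, 860 and 3541 CPM in knockout members and 1254 and 1223 CPM in control members, so knockout replicate 3 was high, knockout replicate 2 was below both controls, and the groups overlapped. The remaining lists also had no call. Their median log2 fold change was -0.39 for 15 inhibitory and MHC class I receptor genes tested and 0.12 for 14 activating receptors and adaptors. It was 0.09 for 12 granule genes and 0.05 for 17 T receptor genes. Chemokine receptors and integrins (18 genes) had 0.07 and 5 gamma-delta genes had -0.83. Among 12 type I interferon genes tested, 9 were positive (median 0.36), with summed levels of 1518, 1248 and 767 CPM in knockout members and 838 and 1090 CPM in control members, which overlapped.

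**Figure D5:**
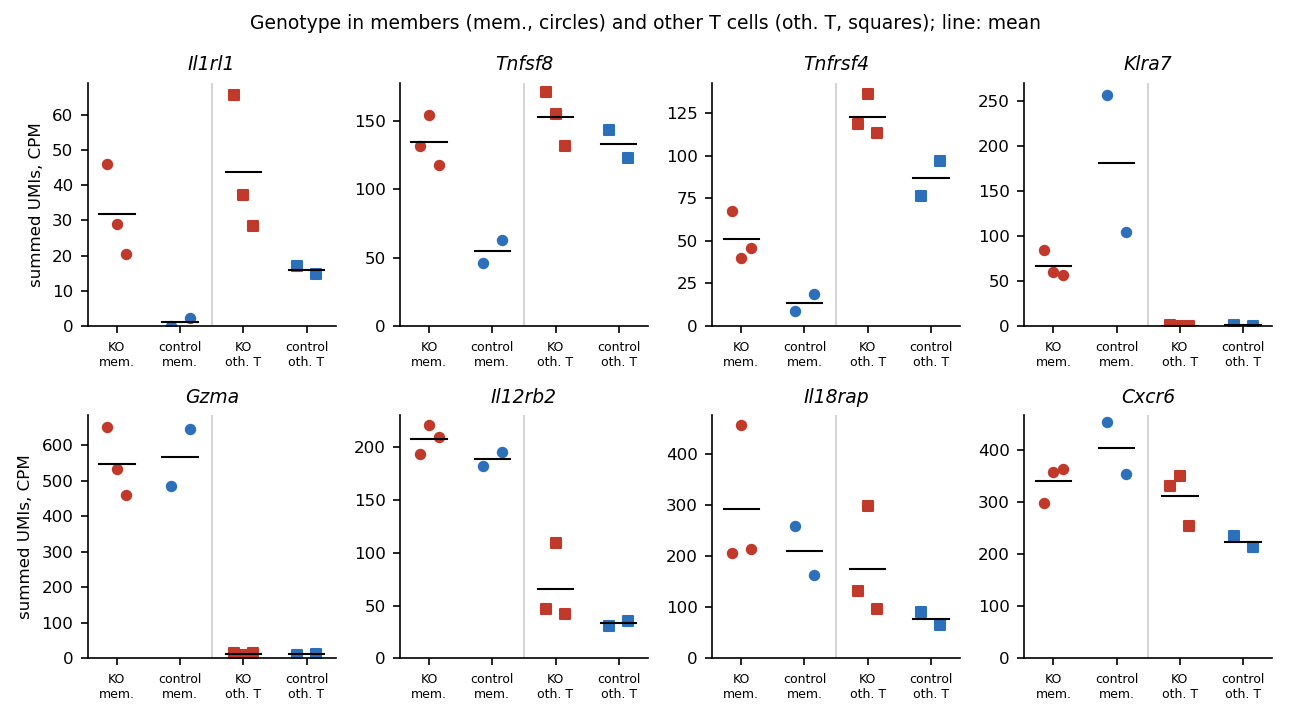
Summed UMIs in CPM (y axis) per library for 8 genes in members (circles) and other T cells (squares), knockout in red and control in blue, with the mean as a line. Il1rl1 was at 20.4 to 45.9 CPM in knockout members and at most 2.32 CPM in control members, while Il12rb2 differed between genotypes less in members (194 to 221 CPM and 182 to 195 CPM) than in other T cells (41.6 to 109 CPM and 30.9 to 35.6 CPM).

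A genotype difference of members that was unlike that of other T cells was tested with an interaction term, with the library in the fit. Other T cells were taken by Cd3e alone, without the filters on Foxp3 and Cd8b1 that members passed. Cells with Foxp3, where Cre is made, are thus on that side of the comparison only, and their part in the calls was not tested. It passed in 53 of 13211 genes (0.401%) in edgeR, 33 higher (0.25%) and 20 lower (0.151%), with 578 (4.38%) at an unadjusted p under 0.05, while the genotype test within other T cells called 0 of 14265 genes (0%), with 737 (5.17%) at an unadjusted p under 0.05. The 53 included markers of other cell types, with Lyz2 (log2 1.86), F13a1 (4.83) and Fn1 (6.10) higher and C1qa (-0.89) and Igkc (-3.68) lower, named after their values were seen, and their part in the other calls was not tested. Of the 53, 10 had at least 50% of their member UMIs from 1 cell and 7 had under 20 member UMIs. The per-library differences between members and other T cells did not overlap between genotypes in 23 of the 53. Among the 6856 genes that passed the count filter in members, 20 were called higher and 15 lower. F13a1, Fn1 and Igkc did not pass that filter. The 3 named as higher were Il1rl1, Tnfsf8 and March3. Tnfsf8 had a log2 interaction of 1.24 ± 0.22 (SE, adjusted p = 2.17e-05), with 171, 155 and 132 CPM in knockout and 143 and 123 CPM in control other T cells. Named as lower were Apoe, a lipid carrier made by macrophages, and Atp8b4. The rule genes Ncr1 and Klrc2 are also in the count of 53, but the rule used their values and no test of them is read. Atp8b4, a lipid-transporting ATPase, had 429, 481 and 322 CPM in knockout members and 638 and 487 CPM in control members, a log2 interaction of -0.77 ± 0.16 (adjusted p = 0.000951). Klrc1 had an interaction of -1.41 ± 0.24 (adjusted p = 1.18e-05), with 9.51, 11.3 and 3.22 CPM in knockout and 4.02 and 3.95 CPM in control other T cells. Its per-library differences overlapped between genotypes. The receptor genes Il12rb2 and Il18rap, which sense IL-12 and IL-18, had interactions of -0.82 ± 0.20 and -0.73 ± 0.18 (adjusted p of 0.0127 and 0.0157). Il12rb2 had 194, 221 and 210 CPM in knockout members and 182 and 195 CPM in control members, against 46.3, 109 and 41.6 CPM in knockout and 30.9 and 35.6 CPM in control other T cells. Without control replicate 1 the interaction passed for 28 genes, and Il1rl1, Tnfsf8, March3, Klrc1, Atp8b4, Il12rb2 and Il18rap no longer passed (adjusted p of 0.117 to 1). Apoe passed there but not without knockout replicate 1 (-0.54, adjusted p = 0.852). Without knockout replicate 1 the count was 34. With membership decided after thinning, Il1rl1, Tnfsf8, Klrc1, Atp8b4, Il12rb2 and Il18rap no longer passed either (39 genes called).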

How the data were processed

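The authors deposited count matrices of UMIs per gene and cell for 5 libraries, and per the file headers the matrices come from Cell Ranger 8.0.0. Seurat 5.1.0 and the mm10 build are named in the submitters' processing notes. Of 40778 barcodes, 1906 had under 500 genes and 1133 had at least 10% mitochondrial UMIs (some both), and 38417 were retained. The members and gene lists were chosen with earlier results of these data known, and the macrophage-marker and B-marker classes after these data were seen. UMIs were summed per library and cell class and tested with edgeR 4.0.16 (quasi-likelihood, TMM factors, Benjamini-Hochberg adjustment over all genes tested, threshold 0.05), in R 4.3.3. The interaction fit took members and other T cells of every library with the library as a term. Other T cells were not filtered on Foxp3 or Cd8b1. DESeq2 1.42.0 was an alternative. Shares used scipy 1.17.1 after thinning each cell to 2000 UMIs, which left out 4897 cells, 2785 of knockout and 2112 of control libraries. Doublets were scored with Scrublet in scanpy 1.11.5, and since it called 1 cell it has not worked here, so doublets were kept and alternatives left out the 5% highest scores. The edgeR steps were also run on simulated counts, with a dispersion shared by all genes of a cell class. No recovery rate from that run is given here. The lack of calls between genotypes therefore does not show that differences were absent.

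Genes were named by rule. For the genotype difference these were up to 10 genes in each direction with the smallest p among those past the threshold whose libraries did not overlap, filled to 6 with genes that did not pass. For the interaction there were up to 3 in each direction. Against Cd4 cells they were the 15 genes outside the rule with the highest smallest log2 CPM difference over the 5 libraries (prior of 5 CPM, at least 50 CPM in each). A fixed set of effector, receptor and factor genes was always named. Antigen receptor segments, unnamed models, ribosomal, mitochondrial and other-cell-type marker genes were left out. Il2ra, the Klra family and the co-detection pairs were chosen after their values were seen. Libraries held 31104939 to 152275841 UMIs. Of 16 genes looked up in the promoter table, 14 matched. A few genes that the rule would name are not reported here.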

Additional observations from a re-analysis of the deposited data

Results flagged for a closer look

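The genotype effect in members differed from that in other T cells of the same libraries, by the interaction term in edgeR (adjusted p under 0.05), for 12 of the genes named by rule. The term was positive for Il1rl1 (5.26 on the log2 scale, adjusted p = 1.93e-06), Cxcl10 (4.50, adjusted p = 1.47e-17), Tnfrsf4 (1.66, adjusted p = 0.000467), March3 (1.26, adjusted p = 0.000102) and Tnfsf8 (1.24, adjusted p = 2.17e-05). The term was negative for Klrc1 (-1.41, adjusted p = 1.18e-05), Ifng (-1.21, adjusted p = 0.0300), Apoe (-1.13, adjusted p = 1.93e-06) and Il12rb2 (-0.82, adjusted p = 0.0127). It was also negative for Cxcr6 (-0.78, adjusted p = 0.00121), Atp8b4 (-0.77, adjusted p = 0.000951) and Il18rap (-0.73, adjusted p = 0.0157). For Klrc1, Ifng, Apoe, Cxcr6 and Atp8b4 the log2 fold change was below 0 in members and above 0 in other T cells. Il12rb2 and Il18rap were above 0 in both. Genes of the membership rule are left out, since the rule used their values. For Klrc1 and Cxcl10 the per-library differences between members and other T cells overlapped between genotypes.

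For Ifng, Il12rb2 and Il18rap the log2 fold change was -0.26, 0.12 and 0.42 in members, against 0.87, 0.95 and 1.13 in other T cells, and none passed the test in either. Ifng had 37.9, 37.9 and 40.9 CPM in knockout members and 39.7 and 55.7 CPM in control members, against 39.0, 108 and 43.7 CPM in knockout and 27.9 and 40.1 CPM in control other T cells. Knockout replicate 2 was the high library among other T cells, and without it the Ifng interaction was -0.59 (adjusted p = 1). Il18rap had 206, 457 and 215 CPM in knockout members and 259 and 162 CPM in control members, against 132, 299 and 96.8 CPM in knockout and 91.4 and 64.6 CPM in control other T cells. Cxcr6 had 297, 357 and 363 CPM in knockout members and 454 and 353 CPM in control members, against 330, 350 and 253 CPM in knockout and 233 and 213 CPM in control other T cells. Apoe, a macrophage gene, had 31.9, 249.6 and 240.2 CPM in knockout members and 72.9 and 420.0 CPM in control members, against 249.5, 254 and 379 CPM in knockout and 74.2 and 288 CPM in control other T cells. Tnfrsf4 had 119, 136 and 113 CPM in knockout and 76.4 and 97.1 CPM in control other T cells.

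Leaving out control replicate 1 ended 10 of the 12 calls, all but Apoe and Cxcl10, with adjusted p of 0.117 to 1 and the sign kept in each. Il1rl1 was then 2.20, Tnfsf8 0.79, March3 0.40, Klrc1 -0.73 and Tnfrsf4 1.16. Only 1 control library remained in that fit, which assumes that it varies like the knockout libraries. With membership decided after thinning, 9 of the 12 calls ended, all but Cxcl10, Apoe and March3. Leaving out knockout replicate 1 ended 4 (Apoe, Il18rap, Cxcr6 and Tnfrsf4), knockout replicate 2 ended 3 (Ifng, Il18rap and Il12rb2) and control replicate 2 ended 4 (Atp8b4, Ifng, Il18rap and Il12rb2).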

How the results depend on the processing

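The member share was lower in knockout libraries under every alternative run, with a knockout minus control difference of -0.00112 to -0.500 points when 1 library was left out and -0.109 to -0.562 points otherwise, and p cannot pass with 5 libraries. The count of genes past the threshold between genotypes in members was 0. It became 1 with DESeq2, 2 with the replicate block (Cxcl10, adjusted p = 0.00731, and Hist1h1b), 2 with membership decided after thinning and 53 with no filter on low counts, and ran from 0 to 8 when 1 library was left out, reaching 3 without control replicate 1 and 8 without control replicate 2. The interaction count of 53 ran from 28 to 70 with 1 library left out, was 39 with membership after thinning, 54 with RLE factors and 50 with no filter. Same-numbered libraries had correlations of 0.085 and 0.063 over 2 pairs. With 2 control libraries the same knockout libraries had -0.085 and -0.063 with the other control by construction. These values therefore cannot show whether libraries were paired. Receptor-poor members made up 4.14% when split at 0 UMIs against 1 or more and 26.5% when thinned to 1000 UMIs, against 9.76%, and 8.72% to 10.3% with 1 library left out. The alternatives of the receptor split that need a test were not run, since too few libraries held 10 cells of each kind.

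Log2 fold changes near 0 in members changed sign. Gzma was 0.049 with the replicate block, 0.10 with at least 3 rule genes and -0.24 to 0.14 with 1 library left out. Nkg7 was 0.014 with at least 3 rule genes, 0.083 with membership after thinning, 0.00182 without the highest Scrublet scores, 0.035 without members holding other-type genes and -0.21 to 0.068 with 1 library left out. Ccl5 was 0.029 with at least 3 rule genes and 0.23 with membership after thinning. Il2rb was 0.018 without the highest Scrublet scores, 0.042 without members holding other-type genes and -0.074 to 0.070 with 1 library left out. With membership after thinning Cd3e was 0.16, Cxcr6 0.25 and Itga2 0.037, and Itga2 was 0.087 with at least 3 rule genes. With 1 library left out Cd3e ran from -0.33 to 0.018, Il18rap from -0.070 to 0.86, Itga2 from -0.42 to 0.34, Tcf7 from -0.62 to 0.094, Fcer1g from -0.30 to 0.73, Tyrobp from -0.072 to 0.71 and Gata3 from -0.59 to 0.030. The causes were not tested. Depth limits members of knockout replicate 3, with 27 cells and 195681 UMIs, the most.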
